A study of Mus musculus with 8 samples.

Results

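The genes described here carry symbols beginning with Nduf, the name given to the nuclear-encoded subunits and assembly factors of NADH dehydrogenase, the first complex of the mitochondrial respiratory chain. They were found by matching the accession of every non-control probe to a RefSeq symbol. The RefSeq gene table held 54 such symbols, and 44 of them were reached, out of 18217 genes with a symbol on the array. The 44 comprised 7 core subunits, 29 accessory subunits (9 placed here in the matrix arm and 20 in the membrane arm), 7 assembly factors whose symbols begin with Ndufaf, and Ndufa4, which carries the name although its protein is now counted with complex IV. The 10 symbols not reached were Ndufb1, Ndufaf8, Ndufa4l2 and 7 gene copies or pseudogenes (Ndufa11b, Ndufb4b, Ndufb4c, Ndufs6b, Ndufa12-ps, Ndufab1-ps and Ndufs5-ps), and whether a probe also read such a copy was not tested.

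Transcripts were measured in the whole heart of 9-week-old male C57BL/6J mice, an inbred laboratory strain, kept on a standard pellet diet, with 1 single-colour Agilent array for each heart. There were 4 fasted mice, without food for 2 days but with water, and 4 satiated mice. Each of 2 slides held 2 hearts of each group, replicates 1 and 2 on slide 1 and replicates 3 and 4 on slide 2. The labels number the hearts as separate samples and say no more about their origin, so each p-value reflects only how much these samples vary, and the number of arrays limits the precision of every value.

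Complex I takes electrons from NADH onto a flavin, passes them along a chain of iron-sulfur clusters to ubiquinone, and pumps protons across the inner mitochondrial membrane. Its L shape has an arm in the matrix, where the electrons travel, and an arm in the membrane, where protons are pumped. The core subunits carry out this chemistry and the accessory subunits surround and stabilise them. Assembly factors insert cofactors, modify subunits or join modules and are not part of the finished enzyme. The heart, which draws most of its ATP from mitochondrial oxidation, is rich in the complex.

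Values are given as relative intensity, which is the background-subtracted signal of a probe divided by the 75th percentile of its array, and they are compared between hearts for the same probe only. Log2 fold changes are fasted minus satiated. A gene was called when limma's adjusted p was under 0.05, and 4077 of 20209 genes and unnamed probes (20.2%) were called, 10.4% of all lower and 9.82% higher in fasted hearts. All 59 probes of the 44 Nduf genes were well above background on all 8 arrays, so none of the 44 was lost to the filter on dim probes, and no spot was saturated.

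Over the genes and unnamed probes tested, the array of fasted replicate 3 stood apart. It correlated least with those of its group (mean r = 0.974, against 0.980 to 0.982 for the other fasted hearts). Its relative intensities summed to 155299 over all genes, against 129362 to 135838 in the other fasted hearts and 127189 to 134578 in satiated hearts. Satiated replicate 1 stood apart in markers of fast skeletal muscle. The troponin Tnni2 was at 3.92 to 6.83 in fasted hearts, against 70.4 in satiated replicate 1 and 1.66 to 2.36 in the other satiated hearts. Mylpf, a myosin light chain, was at 0.210 to 0.250 in fasted hearts, against 9.95 in satiated replicate 1 and 0.197 to 0.222 in the other satiated hearts, and the troponin Tnnt3 was likewise high in satiated replicate 1 alone (11.4). Satiated replicates 3 and 4 were the highest in the adipocyte marker Retn, at 0.817 and 1.32, with 0.0744 to 0.190 in fasted hearts and 0.210 and 0.237 in satiated replicates 1 and 2, and also in the adipocyte marker Plin1. Results are therefore also given without fasted replicate 3 and without satiated replicate 1.

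The 9 cardiomyocyte markers summed to 1981 to 2923 in fasted hearts, highest in replicate 3, and to 2329.9 to 3029.9 in satiated hearts, with 1 called lower (Actc1, cardiac actin, -1.64 ± 0.13) and none higher. All 9 were well above background on all 8 arrays. Among 7 fibroblast markers, 5 were lower (Col3a1, Col1a1, Lum, Col1a2 and Tcf21) and 1, Dcn, was higher. Beside this and the other marker counts, 10.4% of all genes were lower and 9.82% higher. Col3a1 in fasted hearts was at 17.0% of its satiated level. The 7 summed to 239.7 to 289 in fasted hearts and 247 to 282 in satiated hearts. Of these sums Dcn alone gave 201 to 260.1 in fasted hearts and 141 to 158 in satiated hearts. Without Dcn the other 6 summed to 29.1 to 63.1 in fasted hearts and 88.7 to 141 in satiated hearts. No endothelial marker (of 7), macrophage marker (of 5), skeletal muscle marker (of 7) or erythroid marker (of 2) was called, 2 of 6 smooth muscle and pericyte markers (Cspg4 and Acta2) were lower, and 1 of 5 adipocyte markers (Lipe) was higher. With the slide as a block, Pecam1 and Vwf of the endothelium, Pdgfra and Rgs5 were also called higher, and Kdr of the endothelium, Ckm and Pln lower. That block called 18.4% of all genes lower and 17.1% higher. The replicate block made the same additional calls other than Kdr, and called the macrophage marker Adgre1 lower. It called 16.7% of all genes lower and 15.4% higher. In whole hearts, fewer cells of a type and less RNA per cell cannot be told apart. The part that these other cell types have in the Nduf values was not tested.

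Of the 44 Nduf genes, 5 were called lower in fasted hearts and none higher. They were the assembly factors Ndufaf5, Ndufaf1 and Ndufaf6 and the membrane arm subunits Ndufc2 and Ndufa11, at 58.5% to 69.8% of their satiated level. Among all genes tested, 10.4% were called lower, so the count of members is near that background. None of the 7 core subunits, none of the 9 matrix arm subunits, 2 of the 20 membrane arm subunits and 3 of the 7 Ndufaf genes were called.

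The spread within a group took in differences between the slides. In a fit that took the slide as a block, 14 of the 44 were called lower and none higher, where 35.5% of all genes were called, 18.4% lower and 17.1% higher. Blocking on the replicate number instead gave 10 lower and none higher, where 32.1% of all genes were called, 16.7% lower and 15.4% higher. Both blocked counts contained the 5 above. By class, the slide block called 2 core subunits, no matrix arm subunit, 7 membrane arm subunits and 5 Ndufaf genes.

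The direction was shared more widely than the calls. The log2 fold change was below 0 for 40 of the 44, against 50.3% of all genes. Among 40 nuclear genes of complexes II to V it was below 0 for 32. The median over the 44 was -0.18, against -0.0042 over all genes. It was -0.13 for core subunits, -0.065 for matrix arm subunits, -0.25 for membrane arm subunits and -0.42 for Ndufaf genes, and these classes were compared by description only. The matrix arm value depended on the hearts and the scaling used, at -0.15 on slide 1, 0.019 on slide 2, -0.18 without fasted replicate 3, -0.11 without satiated replicate 1 and -0.19 with quantile normalization. On slide 1 the median over the 44 was -0.26 and on slide 2 it was -0.13. On slide 1 both fasted hearts lay below both satiated hearts for 36 genes, where 32.5% of all genes showed this, and on slide 2 for 17, where 31.3% did. Every fasted heart lay below every satiated heart for 10 of the 44 genes, where 14.3% of all genes showed this. Both slides showed it for 17 genes, where 23.5% of all genes did, and both showed the opposite for none, where 22.5% of all genes did.

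**Figure D1:**
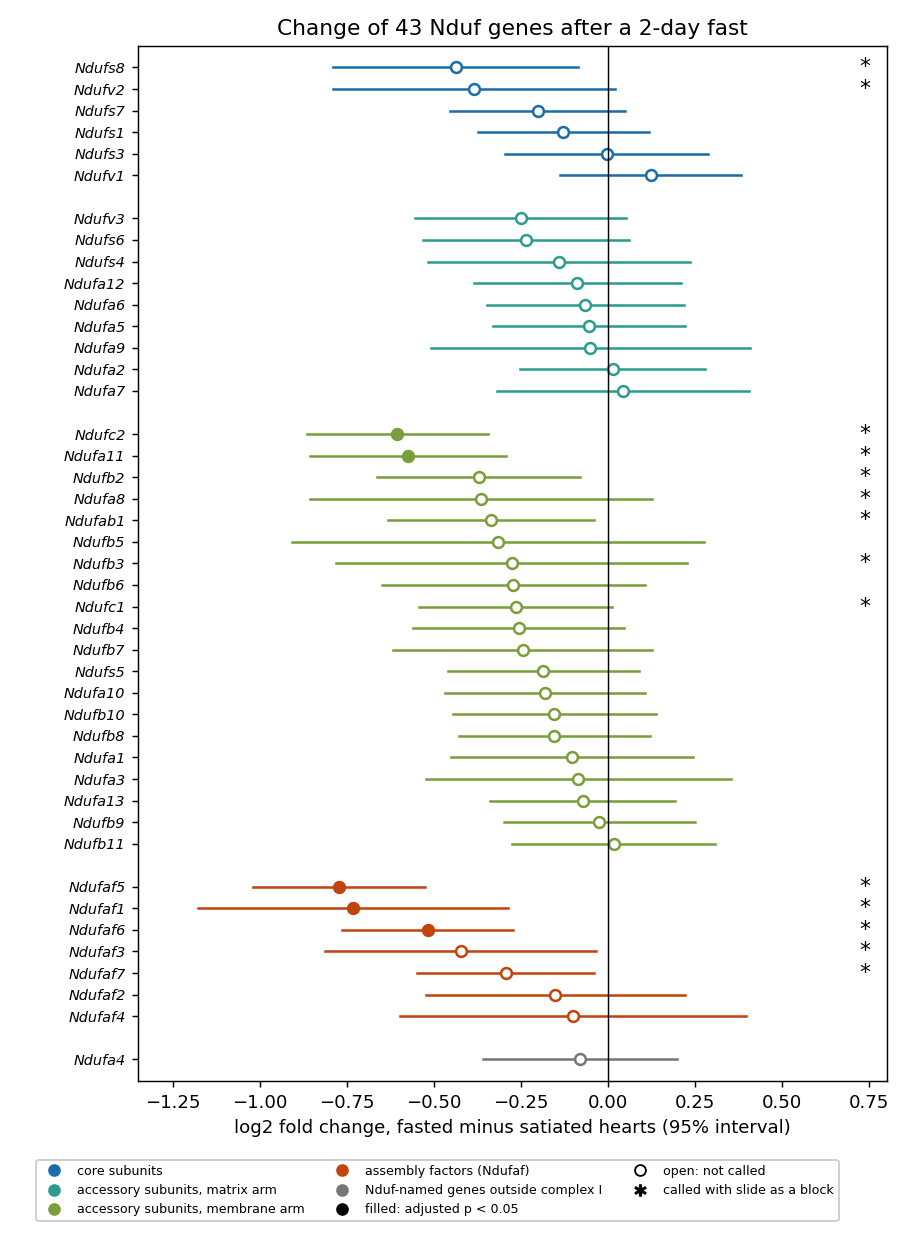
Log2 fold change (fasted minus satiated, n = 4 hearts each) of 43 Nduf genes with its 95% interval, grouped by class. Filled points passed an adjusted p of 0.05 in the comparison without a block (5 genes) and stars mark the 14 called with the slide as a block. Points left of 0 are lower in fasted hearts, which holds for 39 of the 43 drawn.

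Among the Ndufaf genes, Ndufaf5 had the largest difference of all 44, with the brightest probe standing for each gene. Its protein hydroxylates an arginine of the core subunit Ndufs7. Relative intensity was 1.69, 1.65, 1.79 and 1.61 in fasted hearts, against 2.89, 3.18, 2.70 and 2.75 in satiated hearts. The fasted hearts were close together and all below the lowest satiated heart. The log2 fold change was -0.77 ± 0.11 (SE, adjusted p = 0.00278), or 58.5% of the satiated level. It was -0.86 on slide 1 and -0.68 on slide 2.

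Ndufaf1, a member of the complex that assembles the membrane arm next to the matrix arm, had relative intensities of 10.4, 10.6, 7.22 and 7.95 in fasted hearts, against 17.1, 18.1, 12.0 and 12.8 in satiated hearts. The groups did not overlap, and in both groups replicates 3 and 4, on slide 2, were lower than replicates 1 and 2. The log2 fold change was -0.73 ± 0.19 (adjusted p = 0.0322), or -0.75 on slide 1 and -0.72 on slide 2. The call was the least stable of the 5. It was kept when fasted replicate 1, fasted replicate 2 or satiated replicate 3 was left out and was lost when any other single heart was, with adjusted p from 0.0369 to 0.0863 over the 8 hearts left out in turn. With the slide as a block the adjusted p was 0.000887.

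Ndufaf6, which acts early in assembly of the complex, had relative intensities of 2.58, 2.58, 3.03 and 2.58 in fasted hearts, against 3.97, 3.86, 3.88 and 3.69 in satiated hearts. Fasted replicate 3 was the highest of its group and still below every satiated heart. This was a log2 fold change of -0.52 ± 0.11 (adjusted p = 0.0128).

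Ndufaf3 and Ndufaf7 were not called without a block. Either block called Ndufaf3, and the slide block and, among the unblocked alternatives, array weights called Ndufaf7. Ndufaf3, whose protein works with that of Ndufaf4 on the module that binds ubiquinone, had relative intensities of 6.00, 5.95, 4.94 and 4.32 in fasted hearts, against 8.37, 7.94, 6.00 and 6.18 in satiated hearts. Fasted replicate 1 and satiated replicate 3, on different slides, were almost level, and within a slide the groups lay apart. The log2 fold change was -0.42 ± 0.17, with an adjusted p of 0.118 without a block, 0.00636 with the slide and 0.0209 with the replicate number. Ndufaf7, a mitochondrial methyltransferase, had relative intensities of 6.96, 7.62, 7.95 and 6.87 in fasted hearts, against 8.95, 9.86, 8.32 and 8.92 in satiated hearts. All fasted hearts lay below the lowest satiated one, by little in replicate 3. Its log2 fold change was -0.29 ± 0.11, with an adjusted p of 0.100 without a block, 0.0421 with the slide and 0.0699 with the replicate number.

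Ndufaf2, a relative of the subunit Ndufa12, and Ndufaf4 were not called with or without a block. Ndufaf2 had relative intensities of 7.57, 8.08, 11.3 and 8.98 in fasted hearts, against 9.04, 8.66, 10.8 and 11.2 in satiated hearts, with fasted replicate 3 above all 4 satiated hearts. Its log2 fold change was -0.15 ± 0.16. The brightest probe of Ndufaf4 gave 21.8, 18.1, 12.4 and 15.0 in fasted hearts, against 21.2, 20.2, 17.0 and 13.3 in satiated hearts, and the groups overlapped throughout (-0.10 ± 0.22).

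**Figure D2:**
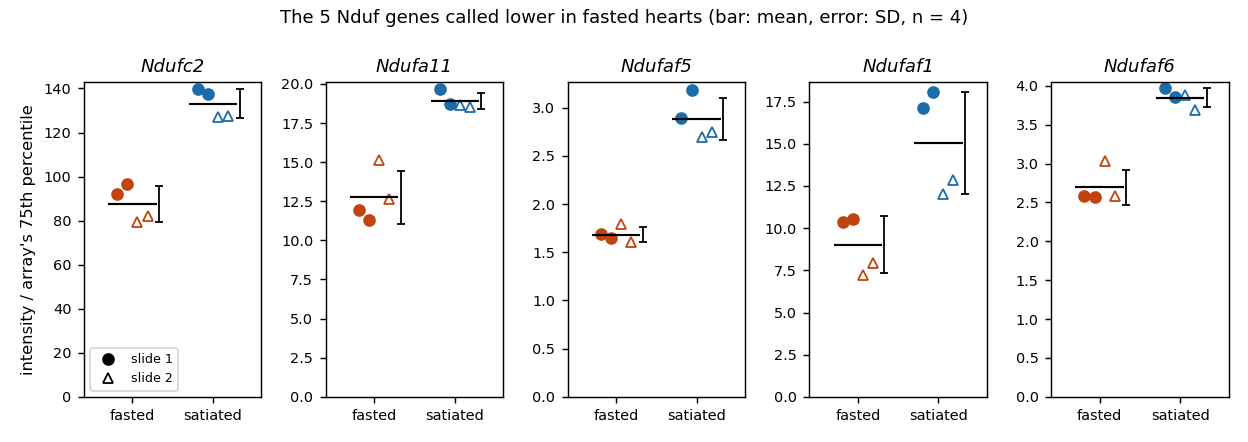
Relative intensity of the 5 Nduf genes called lower in fasted hearts, 1 point for each heart, filled circles for slide 1 and open triangles for slide 2, with the mean and SD of each group (n = 4). The axes start at 0. For each gene all 4 fasted hearts lie below all 4 satiated hearts.

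The 3 probes of Ndufaf4 did not give the same result. Probe A_52_P325265 gave 0.104, 0.136, 0.0829 and 0.0931 in fasted hearts, against 0.381, 0.428, 0.261 and 0.329 in satiated hearts. The groups lay far apart, with a log2 fold change of -1.75 ± 0.21 (adjusted p = 0.00136 over all probes). Probe A_52_P287387 gave -0.31 ± 0.13 (adjusted p = 0.145). Which transcripts each probe reads was not tested, and the level of Ndufaf4 therefore depends on the probe. Its 3 probes averaged were called lower.

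Of 11 Nduf genes with more than 1 probe, the probes differed in their call for 3, and for 9 they lay within 0.2 of each other on the log2 scale. Besides Ndufaf4, Ndufab1 was the exception. Its second probe, A_51_P208801, gave 0.958, 0.931, 1.11 and 0.876 in fasted hearts, against 1.74, 1.78, 1.55 and 1.78 in satiated hearts, a log2 fold change of -0.83 ± 0.12 (adjusted p = 0.00304), where the brightest probe gave -0.34. For Ndufc1 the second probe was called (-0.42 ± 0.12, adjusted p = 0.0413) and the brightest was not. Both probes of Ndufa11 were called, at -0.58 and -0.55.

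**Figure D3:**
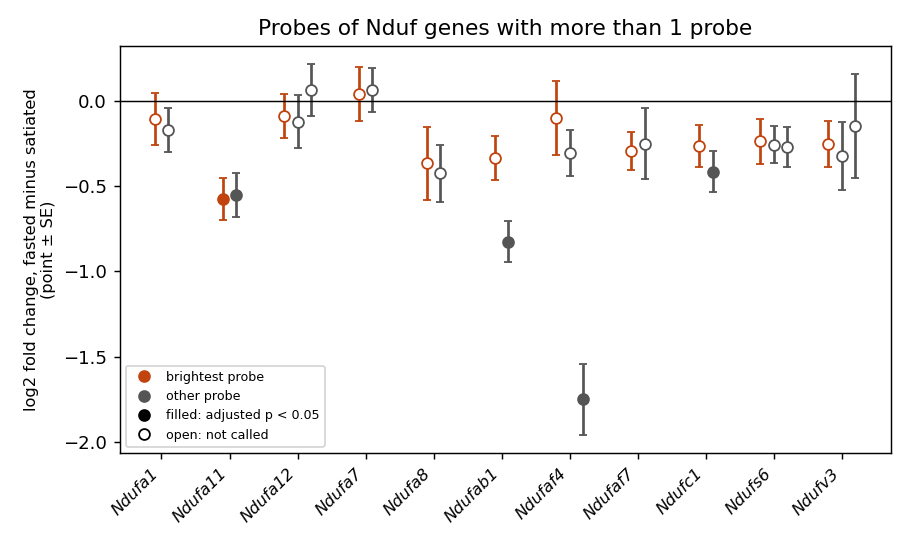
Log2 fold change (fasted minus satiated) with its SE for every probe of the 11 Nduf genes that have more than 1. Filled points had an adjusted p under 0.05. One probe of Ndufaf4 at -1.75 and one of Ndufab1 at -0.83 lie apart from the others of their gene.

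In the membrane arm, Ndufc2 and Ndufa11 were the called subunits. Ndufc2, a small accessory subunit of the membrane arm, had relative intensities of 92.3, 96.8, 79.4 and 82.1 in fasted hearts, against 139.8, 138, 127 and 128 in satiated hearts. All fasted hearts were well below all satiated hearts, by -0.55 on slide 1 and -0.66 on slide 2. Over all 8 hearts the log2 fold change was -0.61 ± 0.11 (adjusted p = 0.00875).

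Ndufa11, a membrane-spanning subunit on the side where complex I meets complex III in supercomplexes, had 11.9, 11.3, 15.1 and 12.7 in fasted hearts, against 19.7, 18.7, 18.6 and 18.5 in satiated hearts. Fasted replicate 3 was again the highest of its group, and the groups did not overlap. Its log2 fold change was -0.58 ± 0.12 (adjusted p = 0.0142), with -0.73 on slide 1 and -0.43 on slide 2.

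A further 5 subunits placed here in the membrane arm were called with the slide as a block. Of these, Ndufab1 and Ndufa8 were also called with the replicate number as a block. Some unblocked alternatives called them too, quantile normalization for Ndufb2 and Ndufc1, array weights for Ndufc1, normexp background correction for Ndufa8 and the mean of a gene's probes for Ndufab1. Ndufb2 had 119, 124, 127 and 110.2 in fasted hearts, against 179.9, 165, 136 and 142 in satiated hearts, with no overlap (-0.37 ± 0.13, adjusted p = 0.0750 without a block, 0.0218 with the slide and 0.0538 with the replicate number). Ndufab1, the mitochondrial acyl carrier protein, which also serves fatty acid synthesis in the matrix, was counted in the membrane arm only. It had 114, 114, 111 and 93.7 in fasted hearts, against 143, 155, 127 and 122 in satiated hearts. Its groups did not overlap either (-0.34 ± 0.13, adjusted p = 0.104 without a block, 0.0217 with the slide and 0.0375 with the replicate number). Ndufa8, which faces the intermembrane space, had 60.7, 64.5, 94.9 and 89.8 in fasted hearts, against 83.5, 78.8, 122 and 114 in satiated hearts. Its levels were higher on slide 2 in both groups, so that the groups overlapped over all 8 hearts and not within a slide. The difference was -0.37 on slide 1 and -0.36 on slide 2 (adjusted p = 0.278 without a block, 0.00907 with the slide and 0.0258 with the replicate number). Ndufb3 was at -0.28 ± 0.22, with an adjusted p of 0.427 without a block, 0.0314 with the slide and 0.0666 with the replicate number. Ndufc1 was at -0.27 ± 0.12, with an adjusted p of 0.163 without a block, 0.0456 with the slide and 0.0798 with the replicate number.

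The other 13 membrane arm subunits, not called with or without the slide block, had log2 fold changes of -0.32 (Ndufb5) to 0.016 (Ndufb11). Ndufb11 had relative intensities of 224, 219, 283 and 237 in fasted hearts, against 223, 218, 251 and 258 in satiated hearts, and its sign turned with quantile normalization (-0.031).

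Among the core subunits, which hold the redox centres, Ndufs8 and Ndufv2 lay lowest. Ndufs8, which carries iron-sulfur clusters near the ubiquinone site, had relative intensities of 17.3, 19.1, 18.6 and 14.1 in fasted hearts, against 25.4, 27.0, 19.8 and 21.4 in satiated hearts. The groups did not overlap, although fasted replicate 2 and satiated replicate 3 were close. The log2 fold change was -0.44 ± 0.15, with an adjusted p of 0.0811 without a block, 0.0216 with the slide and 0.0434 with the replicate number. Ndufv2, an iron-sulfur subunit at the NADH-binding tip, had 40.8, 38.4, 61.7 and 50.4 in fasted hearts, against 55.4, 55.5, 69.6 and 66.1 in satiated hearts. Levels were higher on slide 2 in both groups, and within each slide the groups lay apart. Its difference was -0.39 ± 0.18 on the log2 scale, with an adjusted p of 0.168 without a block, 0.0203 with the slide and 0.0358 with the replicate number. Over 20 alternatives, the blocks among them, Ndufv2 was called in 4 and Ndufs8 in 3, and neither with 1 heart left out. The unblocked ones that called a core subunit included quantile normalization and array weights. Each called 1 of the 7 lower, where 11.2% and 13.2% of all genes were.

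The other 5 core subunits were not called with any block. Ndufs7, whose iron-sulfur cluster passes electrons to ubiquinone, averaged 158 ± 10.3 in fasted hearts and 182 ± 12.6 in satiated hearts (SD, n = 4 each; log2 fold change -0.20 ± 0.11). Ndufs1, the largest iron-sulfur subunit, averaged 143 ± 12.6 in fasted hearts and 156 ± 2.39 in satiated hearts (-0.13 ± 0.11). The means of Ndufs1 differed by about the SD of its fasted hearts, and those of Ndufs7 by more. Ndufs3, a core subunit of the module that binds ubiquinone, averaged 114 ± 11.6 in fasted hearts and 114 ± 10.5 in satiated hearts (-0.0049 ± 0.13). Ndufv1, which binds NADH and the flavin, had 220.4, 227, 267 and 224 in fasted hearts, against 229, 208, 202 and 222 in satiated hearts. It was the only core subunit with a value above 0 (0.12 ± 0.11, adjusted p = 0.504), and fasted replicate 3 was its highest heart.

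The 9 accessory subunits of the matrix arm ranged from -0.25 (Ndufv3) to 0.042 (Ndufa7), and none was called under either block. Among the unblocked alternatives, quantile normalization called 1 of them lower, where 11.2% of all genes were. Array weights called 2 lower, where 13.2% of all genes were. Ndufa7 averaged 113 ± 13.5 in fasted hearts and 109.9 ± 18.0 in satiated hearts, and Ndufa2 averaged 123 ± 14.0 in fasted hearts and 121 ± 2.73 in satiated hearts. Both values, 0.042 ± 0.16 and 0.013 ± 0.12, turned below 0 with quantile normalization (-0.070 and -0.12). Ndufs4, an accessory subunit whose loss causes a mitochondrial encephalopathy in mice, had 62.3, 62.8, 96.6 and 72.9 in fasted hearts, against 75.9, 73.1, 84.4 and 87.1 in satiated hearts, and fasted replicate 3 was the highest of all 8. Ndufa4, the complex IV subunit, had a log2 fold change of -0.081 ± 0.12. Over all 44 genes the 95% interval lay within a 1.5-fold change in either direction for 28, and for 34 with the slide as a block. Of all 20209 genes and unnamed probes, 5132 and 8172 did.

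**Figure D4:**
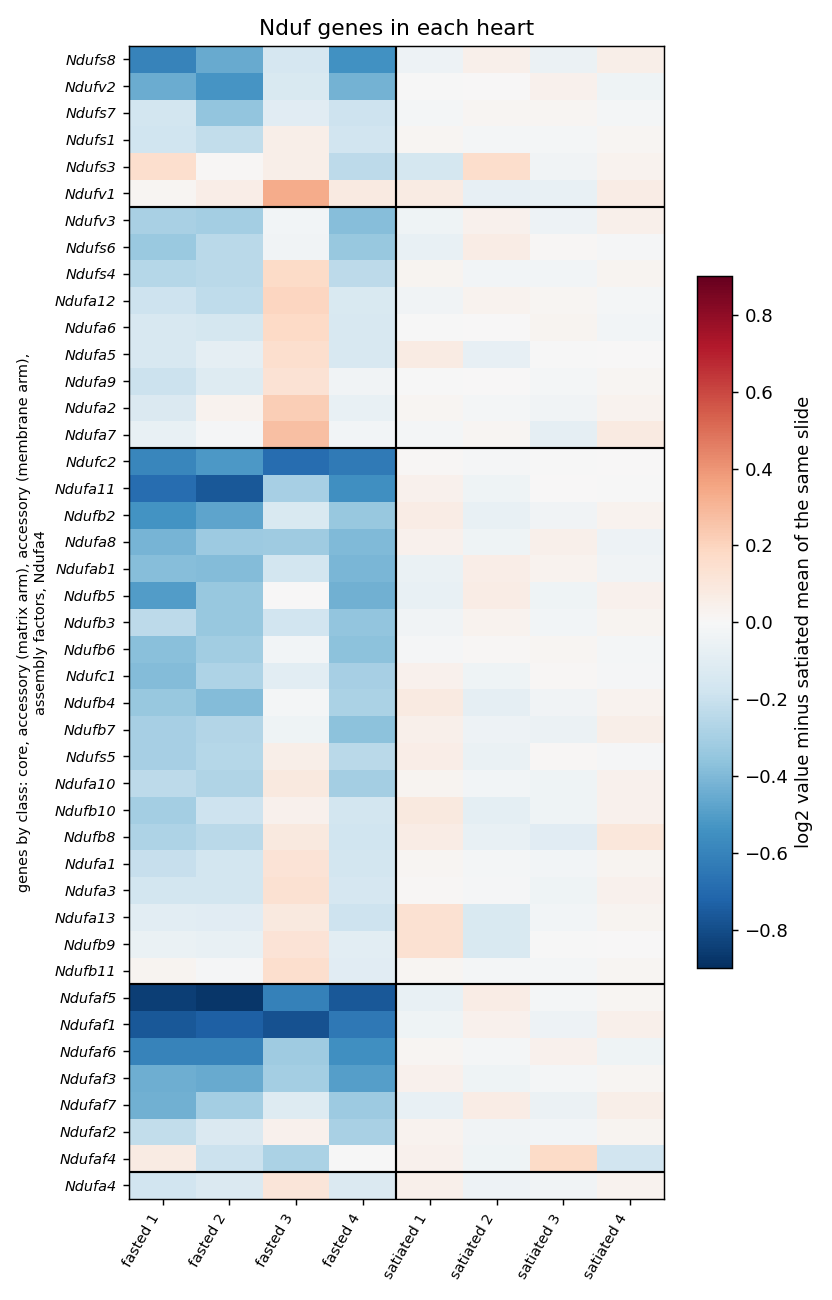
Log2 value of each of 43 Nduf genes in each heart minus the mean of the 2 satiated hearts on the same slide, fasted hearts on the left. Blue is lower and red is higher. The column of fasted replicate 3 is paler or red for most subunits. The genes that are blue in all 4 fasted hearts include Ndufaf5, Ndufaf1, Ndufc2, Ndufa11, Ndufa8 and Ndufaf6.

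The fasted hearts did not share one value for the subunits. Against the satiated mean of the same slide, the median over the 7 core subunits was -0.16, -0.22, 0.051 and -0.19 in fasted replicates 1 to 4. For the 29 accessory subunits it was -0.28, -0.25, 0.049 and -0.24. For the 7 Ndufaf genes it was -0.44, -0.45, -0.30 and -0.50. Thus fasted replicate 3 was apart from the other 3 hearts in the subunits, with 21 of the 44 genes below 0 against 40 to 43 in the others, and lay below 0 with the others in the Ndufaf genes. Over all genes the medians were -0.027, 0.0090, 0.045 and -0.035.

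Other genes with average relative intensities in the span of the subunits, a group chosen after the values were seen, numbered 1485. Their median was 0.014, -0.023, 0.22 and 0.018 in fasted replicates 1 to 4, so they too were high in replicate 3. In that heart the subunits thus lay below these genes, at 0.050 against 0.22. Over all hearts the log2 fold change of these genes had a median of 0.052, with 9.36% called lower, against -0.17 for the 36 subunits. The Ndufaf genes were dimmer, and 4632 other genes lay in their span. The median of those was 0.0023, -0.028, 0.052 and -0.018 in fasted replicates 1 to 4, and 12.7% were called lower. Genes in the 2 spans thus differed in replicate 3. The part of brightness in the difference between subunits and Ndufaf genes in that heart was not tested. Without fasted replicate 3, 4 of the 44 were called lower and none higher, where 9.54% of all genes were lower, and Ndufaf1 was the call lost. The medians were then -0.19 for core subunits, -0.25 for accessory subunits and -0.39 for Ndufaf genes. Without satiated replicate 1, 4 were called lower and none higher, where 7.3% of all genes were lower, and Ndufaf1 was again the call lost (adjusted p = 0.0813, and 0.000887 to 0.107 over its alternatives). With quantile normalization, which gives all arrays one distribution of values, 9 were called lower, where 11.2% of all genes were, and the median over the subunits was -0.25. Array weights called 11 lower, where 13.2% of all genes were, and the fit with no filter on dim probes called 2, where 3.57% were.

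**Figure D5:**
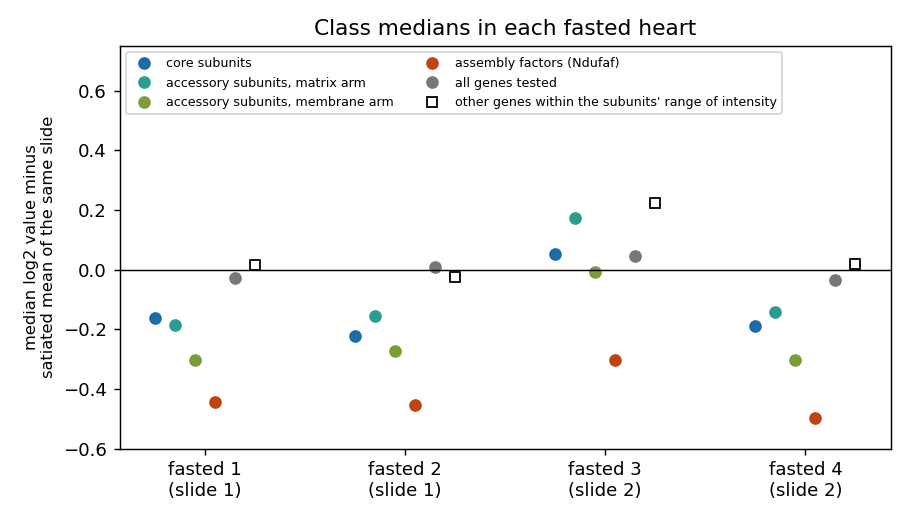
Median log2 value of each class in each fasted heart minus the satiated mean of the same slide. Squares are the 1485 other genes in the span of relative intensity of the subunits. In replicate 3 the core subunits (0.051) and these genes (0.22) are both higher than in the other fasted hearts, and the Ndufaf genes (-0.30) stay below 0. Other genes in the span of the Ndufaf genes are not drawn.

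Promoter sequences of the called genes are shown because these genes were all called lower. RefSeq windows of 300 bases, from 250 before to 50 after the transcription start on GRCm38.p6, were found for 39 of the 44 genes (41 windows) and for 4 of the 5 called. They run 5′ to 3′ along the gene, and capitals mark a match to one of the 4 motifs searched on both strands.
Ndufaf5, chr2:140170396-140170695, forward strand: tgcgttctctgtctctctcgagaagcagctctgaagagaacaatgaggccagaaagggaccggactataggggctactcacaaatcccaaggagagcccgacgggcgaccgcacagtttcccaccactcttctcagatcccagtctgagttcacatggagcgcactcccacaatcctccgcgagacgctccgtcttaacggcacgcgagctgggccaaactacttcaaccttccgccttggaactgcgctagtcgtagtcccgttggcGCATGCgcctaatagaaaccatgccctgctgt
Ndufaf1, chr2:119662785-119663084, reverse strand: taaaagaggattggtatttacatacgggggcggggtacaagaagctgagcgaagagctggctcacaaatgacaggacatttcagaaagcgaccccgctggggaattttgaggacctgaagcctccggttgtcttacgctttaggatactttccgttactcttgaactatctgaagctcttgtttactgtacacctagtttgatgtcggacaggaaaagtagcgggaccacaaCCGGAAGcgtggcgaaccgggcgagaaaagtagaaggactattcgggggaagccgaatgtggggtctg
Ndufc2, chr7:97399753-97400052, forward strand: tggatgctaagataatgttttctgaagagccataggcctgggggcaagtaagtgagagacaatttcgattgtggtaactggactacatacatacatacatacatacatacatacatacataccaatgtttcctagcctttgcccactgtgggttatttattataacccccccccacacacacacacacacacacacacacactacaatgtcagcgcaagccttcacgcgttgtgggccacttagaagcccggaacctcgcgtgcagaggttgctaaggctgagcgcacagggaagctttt
Ndufa11, chr17:56717512-56717811, forward strand: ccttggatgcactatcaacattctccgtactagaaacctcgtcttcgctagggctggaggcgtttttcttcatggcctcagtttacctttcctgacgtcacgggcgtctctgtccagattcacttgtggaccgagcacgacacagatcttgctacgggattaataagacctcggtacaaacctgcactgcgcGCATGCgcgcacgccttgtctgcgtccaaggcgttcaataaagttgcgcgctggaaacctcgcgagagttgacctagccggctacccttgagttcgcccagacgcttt

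The motifs were cores of binding sites of factors known to act on respiratory chain genes. GCATGC, the core of the site of NRF1, was in 5 of the 41 Nduf windows (12.2%) and in 7.93% of all 32851 windows. It is the match in Ndufaf5 and Ndufa11. CCGGAAG, the ETS core bound by GABP, was in 5 of the 41 (12.2%) and 8.86% of all, and it is the match in Ndufaf1. AAGGTCA, the site of the estrogen-related receptors, was in 3 of the 41 (7.32%, Ndufb2, Ndufb4 and Ndufs5) and 4.72% of all. AAGATGG, the YY1 core, was in 17.1% of the Nduf windows (7 genes, none of them among the 4 called genes with a window) and 6.34% of all, and its first letters may overlap the last of CCGGAAG. Ndufc2 had none of the 4, like 18 other Nduf genes with a window. These counts are small, and differences from the shares of all windows were not tested.

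Assembly factors without an Nduf symbol numbered 12. Of these, 1 was called lower and none higher, where 10.4% of all genes were lower. With the slide as a block 4 were lower, where 18.4% of all genes were, and with the replicate number 3, where 16.7% were. Tmem126a, which takes part in building the membrane arm, had relative intensities of 10.6, 11.0, 13.4 and 10.6 in fasted hearts, against 16.5, 16.8, 18.8 and 17.1 in satiated hearts. The groups were well apart (-0.61 ± 0.12, adjusted p = 0.0110). The others called with the slide as a block were Tmem70, Timmdc1 and Dmac2. The 12 had a median of -0.23. None of the 7 subunits encoded in mitochondrial DNA had a probe matched to its symbol.

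Genes that make or deliver iron-sulfur clusters and flavin, the cofactors of the core subunits, numbered 21. Of these, 5 fell and 1 rose, where 10.4% of all genes were lower and 9.82% higher. Bola3, which helps to hand clusters to recipient proteins, was at 54.4, 56.4, 66.9 and 54.7 in fasted hearts, against 97.7, 95.4, 91.1 and 91.9 in satiated hearts (-0.70 ± 0.11, adjusted p = 0.00474). Every fasted heart was below every satiated heart. Glrx5 (-0.49), Isca2 (-0.44), both cluster carriers, and Flad1 (-0.45), which makes FAD, also fell. Slc25a32, a mitochondrial carrier of folate and flavin, rose (0.63 ± 0.11, adjusted p = 0.00695). The scaffold Iscu was at 0.49 ± 0.20 without being called (adjusted p = 0.120), and was called higher with the slide as a block (adjusted p = 0.0106). The slide block gave 4 higher and 8 lower of the 21, where 17.1% and 18.4% of all genes were. With the replicate number 3 were higher and 6 lower, where 15.4% and 16.7% of all genes were. Besides Iscu, the slide block added Bola1 and Hscb as higher and Isca1, Fdxr and Abcb8 as lower. The median over the 21 was -0.10.

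Among 20 regulators of respiratory gene transcription, 3 fell and 1 rose, where 10.4% of all genes were lower and 9.82% higher. Perm1, a muscle regulator of PGC-1 and ERR target genes, was at 12.2, 10.5, 7.11 and 12.5 in fasted hearts, against 20.1, 20.1, 20.6 and 19.8 in satiated hearts. The satiated hearts were nearly level and all fasted hearts were below them, replicate 3 lowest (-0.97 ± 0.19, adjusted p = 0.00947). Tfam, which packages and transcribes mitochondrial DNA (-0.38 ± 0.11, adjusted p = 0.0380), and Mef2c (-0.36 ± 0.11, adjusted p = 0.0451) fell, and Mef2d rose (0.68 ± 0.19, adjusted p = 0.0364). Both Mef2 genes encode muscle transcription factors. Esrra, the receptor named ERR alpha, was at -0.42 ± 0.17 (adjusted p = 0.117 without a block and 0.0218 with the slide), and Nrf1 at 0.68 ± 0.34 (adjusted p = 0.206 without a block and 0.00396 with the slide). In all, 7 of the 20 were lower and 3 higher with the slide as a block, where 18.4% and 17.1% of all genes were. With the replicate number 6 were lower and 4 higher, where 16.7% and 15.4% of all genes were. The slide block also called Ppargc1b, a coactivator of the PGC-1 family (-0.82, adjusted p = 0.0173), Esrrg and Tfb1m lower and Tfb2m higher, and the replicate block called Ppargc1a higher (0.47, adjusted p = 0.0324) and did not call Tfb1m.

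In the rest of the respiratory chain, 1 of 40 nuclear genes of complexes II to V was called lower and none higher, where 10.4% of all genes were lower. With the slide as a block 5 were lower, where 18.4% of all genes were, and with the replicate number 4, where 16.7% were. Sdhd, a membrane anchor of complex II, was the call (-0.35 ± 0.10, adjusted p = 0.0463). The median over the 40 was -0.091, with -0.18 on slide 1 and -0.012 on slide 2, against -0.26 and -0.13 over the 44 Nduf genes. On slide 1 both fasted hearts lay below both satiated hearts for 30 of the 40, against 36 of the 44 Nduf genes. On slide 2 they did for 7 of the 40, against 17 of the 44. All genes showed this at 32.5% on slide 1 and 31.3% on slide 2. These differences between the lists were not tested. Of 5 genes tied to supercomplexes, 1 was called lower and none higher, where 10.4% of all genes were lower. It was Higd1a (-0.68 ± 0.14, adjusted p = 0.0126). With either block 2 were lower, Higd2a being the other, where 18.4% (slide) and 16.7% (replicate number) of all genes were. Of 10 mitochondrial quality control proteases and partners, 1 was called higher and none lower, where 9.82% of all genes were higher. It was Clpx, the unfoldase that feeds the ClpP protease. Clpx had 21.5, 19.7, 25.3 and 21.4 in fasted hearts, against 10.3, 12.5, 12.1 and 13.6 in satiated hearts (0.86 ± 0.13, adjusted p = 0.00418). Its partner Clpp was at 0.077 ± 0.12 and was not called. With the slide as a block, the proteases Yme1l1 and Oma1 and the prohibitin Phb2 were also called, Yme1l1 and Phb2 higher and Oma1 lower. That block gave 3 higher and 1 lower of the 10, where 17.1% and 18.4% of all genes were. With the replicate number 2 were higher and 1 lower, where 15.4% and 16.7% of all genes were. Oma1 was at -0.74, with an adjusted p of 0.317 without a block, 0.000819 with the slide and 0.00529 with the replicate number.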

How the data were processed

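Each heart's total RNA was labelled with Cy3 and read on its own array, per the labels. The deposited scanner tables hold spot intensity on a linear scale, background-subtracted by Agilent Feature Extraction (10.5.1.1 on slide 1 and 10.7.3.1 on slide 2 per the file headers, 9.1 per the submitters' processing notes) and not normalized between arrays. Slide, scan and software version cannot be told apart. The deposited table of all arrays gives each value as a linear ratio. How it was made was not given in the sources used here. With a constant allowed for every probe and array, 99.7% of its values matched the scanner values within 0.01 (log2). Its scale and direction are therefore those of the intensities, while its probe divisors and array factors stay unknown. Its column medians were 0.887, 0.860, 1.02 and 0.960 for fasted replicates 1 to 4 and 0.876, 0.901, 0.954 and 0.980 for satiated replicates 1 to 4.

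Control spots and outlier spots were left out, spots of a probe averaged, and each array's log2 values lowered by their 75th percentile. A probe was kept if at least 4 of the 8 arrays had it well above background, 26488 of 41174. Accessions were matched to RefSeq symbols of GRCm38.p6 (26690 probes). The array's own annotation is of mm9, so gene coordinates are given for the RefSeq promoter windows only. The brightest kept probe stood for a gene. Groups were compared with lmFit and eBayes (R 4.3.3, limma 3.58.1) in a two-sided test, with Benjamini-Hochberg adjustment over all 20209 genes and unnamed probes, with no block. The fit was also run on simulated data whose noise was independent between hearts and held no slide effect. Such data cannot show how differences between slides affect the fit. Python 3.11.15, pandas 2.3.3 and matplotlib 3.10.9 served for summaries and figures.

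The alternatives were the slide or the replicate number as a block, each slide alone, each heart left out, quantile or median scaling, normexp background correction with an offset of 50 (on the median signal, since the scanner tables used here hold no mean signal), other filters on dim probes, the mean of a gene's probes, array weights and the authors' ratios. Same-numbered hearts deviated together from their group means (r = 0.44, 0.47, 0.33 and 0.49), and so did differently numbered hearts of 1 slide (0.29 to 0.52). The numbers come from the labels, and blocked values are given where they change a call of an Nduf gene, with counts for the other lists.

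Genes named are all core subunits and Ndufaf genes, accessory subunits called with or without the slide block, the 3 largest and 3 smallest changes among accessory subunits, Ndufa4 and, in other lists, called members or the up to 2 with the smallest p. Ndufs4, Ndufv3, Ndufb5, Clpp, Iscu, Esrra, Nrf1, Tmem70, Timmdc1 and Dmac2, list genes and markers called with a block alone, Tnni2, Tnnt3, Mylpf, Plin1 and Retn, and genes named for a promoter match or a heart far from its group, were named after their values were seen. Some genes counted in the lists are not reported here by name. The members and all lists were chosen with earlier results of these data known.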

Additional observations from a re-analysis of the deposited data

Results flagged for a closer look

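Among 100 groups of 4 hearts tested for a heart far from the others, for single Nduf genes and for class medians, 12 had one, where chance gives about 1 in 20. The measure is the gap to the nearest heart divided by the range of the group. In fasted hearts the far heart was replicate 3, on the high side, for Ndufa10 (0.920), Ndufaf6 (0.983), Ndufs1 (0.838), Ndufv1 (0.844) and Ndufv3 (0.853). It was also replicate 3 for the medians of the core subunits (0.838), the accessory subunits (0.832), the membrane arm subunits (0.866) and all subunits (0.835). For Ndufab1 the far fasted heart was replicate 4, on the low side (0.846). In satiated hearts replicate 1 was high for Ndufa11 (0.830) and replicate 2 was low for Ndufa5 (0.956). The Nduf genes share arrays, and class medians repeat the values of their members. In fasted hearts the median of the core subunits had the same gap as its member Ndufs1 (0.838). The accessory and membrane arm subunits are also part of all subunits. These flags are therefore not independent of each other, and their count cannot be weighed against the rate of 1 in 20.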

How the results depend on the processing

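The count of Nduf genes called lower was 5 in the main comparison, 14 with the slide block, 10 with the replicate block (the replicate number as a block), 9 with quantile normalization, 11 with array weights, 2 with no filter on dim probes and 0 on slide 2 alone (limma). On slide 2 alone 3 of the 44 had an unadjusted p under 0.05, and only 1 of all 20209 genes was called. None was called higher in these settings. The share of all genes called lower was 10.4% in the main comparison, 18.4% with the slide block and 16.7% with the replicate block. It was 11.2% with quantile normalization, 13.2% with array weights and 3.57% with no filter on dim probes. Over all genes 4077 were called in the main comparison, 7180 with the slide block and 6490 with the replicate block, 1880 on slide 1, 2225 of 32701 with no filter, and 2497 to 3692 with 1 heart left out, the lowest without satiated replicate 4 and the next, 2522, without satiated replicate 2. With 1 heart left out, 4 to 5 Nduf genes were called. The median of the core subunits was -0.26 with quantile normalization and that of the Ndufaf genes -0.32 with array weights. For single named genes under the alternatives, 911 values kept their direction and side of the threshold, 129 lost a call, 37 gained one and 23 changed sign. Ndufaf5 was called in 19 of 20 alternatives, Ndufa11, Ndufaf6 and Ndufc2 in 18 and Ndufaf1 in 13.

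Values that changed sign were of genes not called in the main comparison. Ndufa2 was at -0.052 on slide 1, -0.016 with normexp, -0.12 with quantile normalization and -0.062 with array weights. Ndufa7 was at -0.040 on slide 1 and -0.070 with quantile normalization. Ndufs3 was at 0.081 on slide 1, 0.014 with normexp and 0.023 with array weights. Ndufb11 was at -0.031 with quantile normalization and -0.072 with array weights, and Ndufaf4 at 0.14 with array weights. With 1 heart left out, values ranged from -0.060 to 0.064 for Ndufa2, -0.051 to 0.13 for Ndufa7, -0.24 to 0.036 for Ndufaf4, -0.064 to 0.058 for Ndufb11, -0.064 to 0.065 for Ndufs3 and -0.018 to 0.28 for Hba-a1. The causes were not tested.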
